A study of Mus musculus with 26 samples.

Results

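Mouse embryonic stem cells (ESC) with the genotype label of a knockout of NAP1L1's alpha form (alphaKO) were compared with wild-type (WT) cells after 2 days of retinoic acid. The comparison took 6 of the 26 RNA-seq libraries of the study, chosen by their genotype and day labels, with 3 alphaKO and 3 WT libraries. All cells were of KH2, an established mouse ESC line, and both groups had received retinoic acid for the same 2 days. For reference, 3 libraries with the label of a NAP1L1 knockout (fullKO) were taken at day 2, and alphaKO and WT libraries at days 0 and 4. A day 2 group without retinoic acid was not used here. The alphaKO library names share 1 prefix, so they may stand for 1 cell line, and differences of line and of genotype cannot be told apart. Whether replicates were separate cultures is not in the labels. The p-values therefore measure only the spread between replicate libraries, estimated over all 26 libraries, and this spread may be technical. The series asks how the transcriptome differs between WT and the NAP1L1 knockout lines along this differentiation.

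NAP1L1 is a histone chaperone: it binds histones H2A and H2B and hands them to DNA during nucleosome assembly. ESC hold a naive pluripotency network of transcription factors such as Nanog, Tfcp2l1 and Klf4, fed by LIF and Wnt signals. On leaving that state they pass through a formative phase, and retinoic acid, acting through nuclear receptors, then switches on Hox genes and genes of its own transport and breakdown.

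Total counts were 17400607, 18478419 and 18416229 in the alphaKO libraries and 15589729, 14386522 and 15480912 in the WT libraries. The 10 most abundant genes took 4.23% to 4.31% of counts in alphaKO and 3.9% to 4.07% in WT, and mitochondrial genes took 1.95% to 2.04% in alphaKO and 1.66% to 1.92% in WT. Of 18412 genes tested with edgeR's quasi-likelihood test, 3665 (19.9%) were higher in alphaKO and 3730 (20.3%) were lower, at a Benjamini-Hochberg adjusted p under 0.05; such genes are said to have been called, to have risen or to have fallen. Called genes with at least a 2-fold difference were 542 higher (2.94%) and 1119 lower (6.08%). The median log2 fold change over all tested genes was 0.01 and the median size of the change, sign aside, was 0.28. The 3 libraries of one genotype did not overlap with those of the other in 9057 genes, which is 49.2% of those tested. This share stands beside every statement below that named genes did not overlap. Most named genes were chosen for a large change, so a lack of overlap adds little to their calls. Levels are given as CPM, the counts of a gene scaled to a common library size. Log2 fold changes are alphaKO over WT and carry their SE after ±, while mean CPM levels carry their SD.

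Nap1l1 itself, the targeted gene, had 609, 628 and 619 CPM in alphaKO and 857, 862 and 856 CPM in WT. All alphaKO libraries lay under all WT libraries, with a log2 fold change of -0.47 ± 0.04 (edgeR, Benjamini-Hochberg adjusted p = 2.35e-14). A count per gene cannot show which form of the protein was lost. Nap1l1 averaged 367 CPM in fullKO at day 2. Of the 11 tested genes of the NAP1 family, 2 rose and 2 fell (18.2% each), with a median of 0.10. Over all tested genes 19.9% rose and 20.3% fell. These shares stand beside every list count of alphaKO against WT at day 2. Set, a family member that also shields histone tails from acetylation, had 730, 743 and 751 CPM in alphaKO and 634, 637 and 652 CPM in WT, and rose by 0.21 ± 0.03. Nap1l4, the closest ubiquitous relative, had 219, 216 and 210 CPM in alphaKO and 200.3, 196 and 206 CPM in WT; these did not overlap, but the change of 0.10 ± 0.04 missed the threshold (edgeR, Benjamini-Hochberg adjusted p = 0.0531). The wider list of 24 histone chaperones had 12 members higher and 2 lower, with a median of 0.18. Hjurp, which loads the centromeric histone CENP-A, had 302, 293 and 316 CPM in alphaKO and 173, 184 and 166 CPM in WT, and nucleolin (Ncl) rose by 0.83 ± 0.03; both lie on chromosome 1.

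Chromosome 1 stood apart in this comparison, and genes that rose on it or on chromosome 14 are marked below. Of its 1115 tested genes, 47.1% rose and 9.6% fell, and their median log2 fold change was 0.41. The same median was 0.41 at day 0 and 0.50 at day 4 between alphaKO and WT, and 0.27 between fullKO and WT at day 2. On chromosome 14, 32.2% of 615 tested genes rose and 15.6% fell, with a median of 0.12. On the other autosomes and chromosome X, 15.1% to 21.4% of genes rose. The Y chromosome had 7 tested genes, of which 4 fell: Eif2s3y, a translation initiation factor gene, had 0.457, 0.862 and 0.378 CPM in alphaKO and 19.4, 17.1 and 17.7 CPM in WT, and Ddx3y, an RNA helicase gene, had 2.4, 1.89 and 3.45 CPM in alphaKO and 50.8, 55.3 and 58.8 CPM in WT. In fullKO at day 2 these averaged 6.18 CPM for Eif2s3y and 30.8 CPM for Ddx3y. The part of these chromosome-wide shifts in the results for single genes was not tested.

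**Figure D1:**
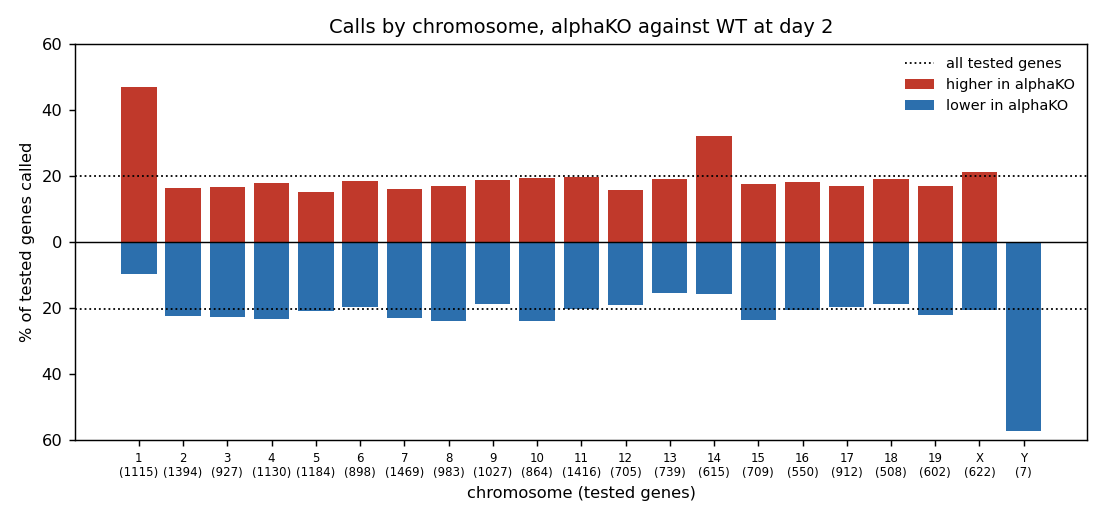
Share of tested genes called higher (upward bars) and lower (downward bars) in alphaKO against WT at day 2, in percent, by chromosome, with the number of tested genes in brackets and dotted lines at the shares over all tested genes. Chromosome 1 has 47.1% of its genes higher, chromosome 14 has 32.2%, and on Y 57.1% of 7 genes were lower and none was called higher.

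Marker genes were read next as a check of the labelled cell type. All 6 ESC markers rose, and their summed level was 485.4 to 510.6 CPM in alphaKO and 209.6 to 212.2 CPM in WT. Endoderm markers rose in 6 and fell in 1 of 10, with sums of 475.4 to 542.2 CPM in alphaKO and 195.3 to 215.6 CPM in WT. Fibroblast markers, which feeder cells express, fell in 8 of 10 and rose in none, with sums of 232.3 to 297.1 CPM in alphaKO and 633.2 to 704.9 CPM in WT. None of these 10 was at 0; Pdgfrb, the receptor for platelet-derived growth factor B, had 37.9, 34.1 and 37.1 CPM in alphaKO and 36.5, 36.6 and 34.5 CPM in WT. The 4 neural progenitor markers summed to 286.5 to 312.2 CPM in alphaKO and 367.4 to 397.6 CPM in WT, and the 4 neuron markers to 63.3 to 69.9 CPM in alphaKO and 96.5 to 98.8 CPM in WT. Their members did not all go 1 way: 1 progenitor marker, Sox1, rose and 2 fell. Of the neuron markers 1 rose, Neurog1, which was under 1 CPM in every day 2 library, and 3 fell. Mesoderm and trophoblast markers summed to under 10 CPM in every day 2 library, and the trophoblast gene Tpbpa was at 0 in all of them. In bulk libraries, fewer cells of a type and less RNA per cell cannot be told apart.

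Naive pluripotency genes were the list with the highest median among those examined. Of 22 tested members 18 rose and 1 fell, and the median log2 fold change was 1.40. Outside chromosomes 1, 14 and Y the median was 1.04. Tfcp2l1, a naive-state transcription factor on chromosome 1, had 434, 417 and 435 CPM in alphaKO and 44.5, 41.3 and 38.7 CPM in WT (3.37 ± 0.05). Nanog, a core factor of the network, had 144, 142 and 156 CPM in alphaKO and 18.6, 20.9 and 18.99 CPM in WT (2.92 ± 0.06). The nuclear receptor gene Nr0b1 rose by 2.48 ± 0.24 and the growth factor gene Fgf4 by 2.43 ± 0.15. For all 4 genes every alphaKO library lay above every WT library. Klf4 had a smaller difference, with 39.5, 37.1 and 36.5 CPM in alphaKO and 25.7, 22.9 and 23.2 CPM in WT (0.65 ± 0.07). The 1 member that fell was Trp53inp1, a p53-inducible gene, at 326, 320.1 and 319 CPM in alphaKO and 582, 597 and 588 CPM in WT. Dppa3, an oocyte and germ cell factor gene, had overlapping libraries and a change of 0.09 ± 0.20.

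General and formative pluripotency genes were read as lists of their own. Of 18 general members 10 rose and 4 fell, with a median of 0.20. Pou5f1, the gene of OCT4, had 76.7, 82.7 and 81.3 CPM in alphaKO and 24.9, 25.9 and 23.3 CPM in WT (1.70 ± 0.07), while Dnmt3l, a cofactor of the de novo DNA methyltransferases, had 97, 99.98 and 104 CPM in alphaKO and 158, 165 and 152 CPM in WT (-0.65 ± 0.06). Of 16 formative and primed members 7 rose and 7 fell. Among the fewer members outside chromosomes 1, 14 and Y, 4 rose. Pou3f1 (OCT6) had 25.9, 20.2 and 23.9 CPM in alphaKO and 14.4, 11.8 and 12.1 CPM in WT, and Otx2, on chromosome 14, rose by 1.64 ± 0.31. Lef1, a Wnt effector, had 10.9, 8.46 and 8.9 CPM in alphaKO and 21.2, 21.9 and 21.6 CPM in WT, and Grhl2, an epithelial transcription factor gene, fell by 2.03 ± 0.13.

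**Figure D2:**
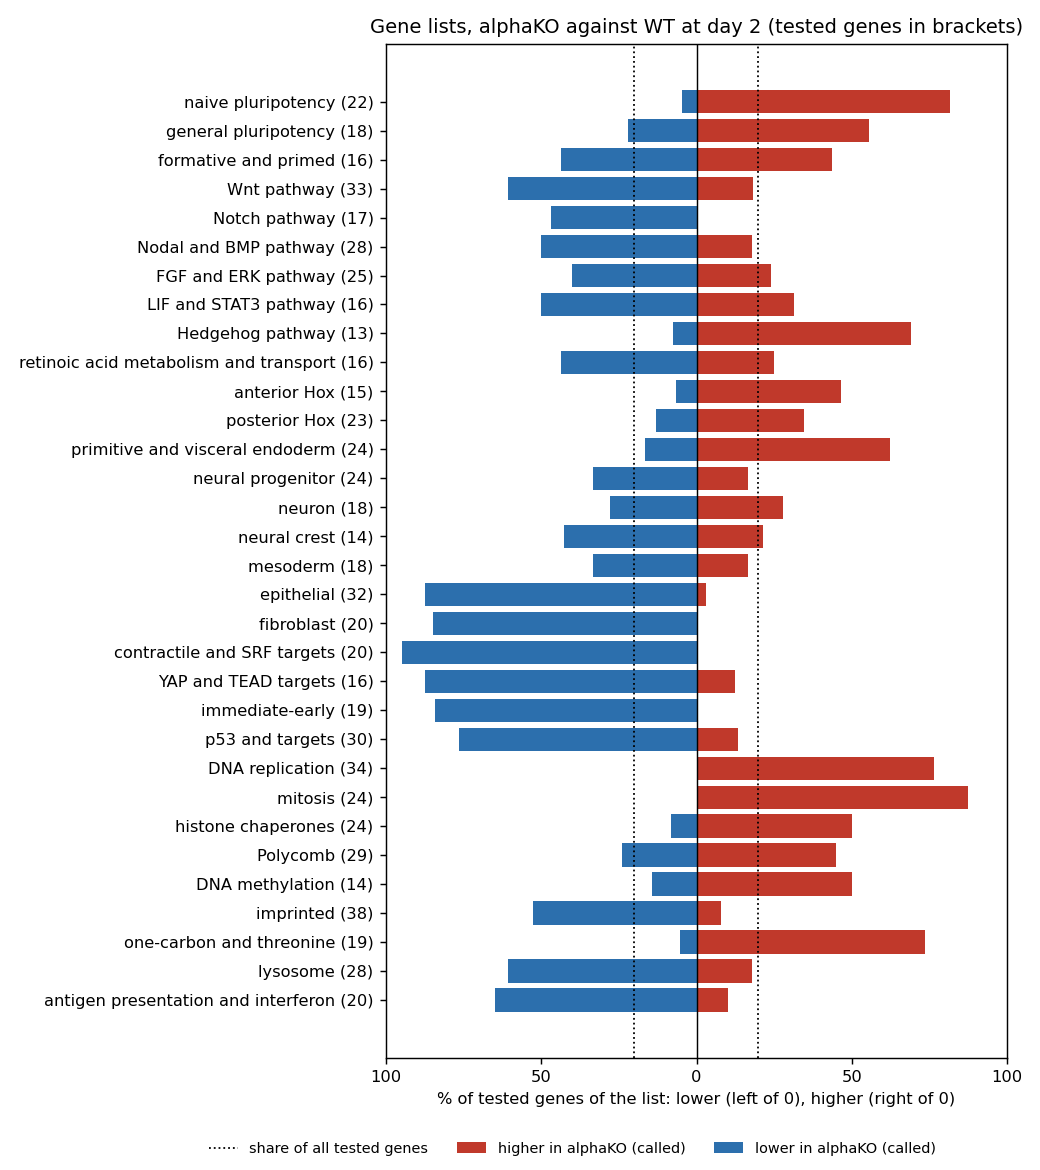
Percent of tested genes of each list called higher (right of 0) or lower (left of 0) in alphaKO against WT at day 2, with the number of tested genes in brackets and dotted lines at 19.9% higher and 20.3% lower over all tested genes. Naive pluripotency, DNA replication and mitosis lists lie mostly to the right, and epithelial, fibroblast, contractile, immediate-early and p53 lists mostly to the left.

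The same comparison was then read along the course of WT differentiation, with genes chosen from WT days 0 and 4 only. Among 1743 genes that fell at least 4-fold in WT by day 4, 28.3% were higher in alphaKO at day 2 and 9.87% lower, with a median log2 fold change of 0.24. Among 2427 genes that rose at least 4-fold in WT, 7.91% were higher in alphaKO and 40.3% lower, with a median of -0.42. Over all tested genes these shares were 19.9% higher and 20.3% lower, and no test was made between the sets, since genes are not replicates.

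Signalling genes were grouped by role, beside shares of 19.9% higher and 20.3% lower over all tested genes. Wnt ligands bind Frizzled receptors and stabilise beta-catenin, which with TCF and LEF factors drives targets such as Axin2 and Sp5. Of 33 tested Wnt pathway genes 6 rose and 20 fell, with a median of -0.50. Ligands and the R-spondins that amplify them fell in 9 of 11 and rose in none, with a median of -1.40. Wnt6 had 9.93, 8.35 and 9.82 CPM in alphaKO and 35.9, 34.7 and 31.7 CPM in WT (-1.86 ± 0.13), and Wnt3 had 8.27, 6.47 and 6.2 CPM in alphaKO and 18, 19.2 and 17.9 CPM in WT (-1.40 ± 0.13). Wnt11 fell by 1.90 ± 0.19 and Wnt5a by 1.78 ± 0.16. Every alphaKO library lay below every WT library for these 4 ligands. Nuclear factors and targets fell in 7 of 10 and rose in none: Axin2, a feedback inhibitor, had 30.8, 30.2 and 36.8 CPM in alphaKO and 53.2, 54.2 and 51.5 CPM in WT (-0.70 ± 0.08), and Sp5 fell by 1.08 ± 0.12. Receptors rose in 4 of 6 and fell in 2, with a median of 0.15. Fzd5 had 61.5, 61.9 and 61.9 CPM in alphaKO and 17.5, 17.7 and 17.1 CPM in WT (1.82 ± 0.06), though it and Fzd7, which rose by 0.64, lie on chromosome 1. Secreted inhibitors rose in 2 and fell in 2 of 5: Sfrp1 had 108, 111 and 107 CPM in alphaKO and 30.6, 33.8 and 35.9 CPM in WT (1.70 ± 0.07).

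Notch signalling passes between touching cells, from Jagged and Delta ligands to Notch receptors and on to Hes and Hey repressors. Of 17 tested members none rose and 8 fell, with a median of -0.69, and 2 rose without WT replicate 3. Jag1 had 8.33, 6.63 and 8.36 CPM in alphaKO and 23.4, 24.4 and 22.1 CPM in WT (-1.58 ± 0.11), and Jag2 had 27.1, 22.7 and 21.7 CPM in alphaKO and 59.9, 60.8 and 65.2 CPM in WT (-1.38 ± 0.08). Dll1 fell by 1.30 ± 0.12 and Lfng, a glycosyltransferase that tunes Notch to its ligands, by 1.09 ± 0.13. In all, 4 of 5 ligands and 2 of 4 receptors fell, and of 6 tested targets only Hey1 was called, lower by 1.89 on the log2 scale. The target Hes1 had a change of 0.18 ± 0.08 that did not pass the test.

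Nodal, activin and BMP ligands signal through SMAD proteins, and follistatin, Noggin and the Lefty proteins hold them back. Of 28 tested members 5 rose and 14 fell, with a median of -0.16. Among the fewer members outside chromosomes 1, 14 and Y, 9 fell and the median was 0.01. Inhba, the activin A subunit, had 13.6, 10.5 and 20.5 CPM in alphaKO and 74.3, 79.4 and 61.5 CPM in WT (-2.27 ± 0.14), and Tgfb1 fell by 1.84 ± 0.13. Inhbb, the activin B subunit on chromosome 1, had 7.87, 8.03 and 8.04 CPM in alphaKO and 1.92, 1.69 and 1.94 CPM in WT (2.10 ± 0.17). The groups did not overlap for any of the 3. Secreted inhibitors fell in 4 of 5: Fst, follistatin, had 11.8, 9.86 and 10.1 CPM in alphaKO and 39.9, 42.8 and 47.7 CPM in WT (-2.04 ± 0.14), Nog fell by 1.56, and Lefty2 had 87.2, 89.8 and 104 CPM in alphaKO and 173, 198 and 187 CPM in WT. Of 9 intracellular inhibitors and targets 2 rose and 2 fell, with a median of 0.03.

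FGF ligands drive ERK signalling, whose activity is read in ETV factors, Sprouty proteins and DUSP phosphatases. Of 25 tested members 6 rose and 10 fell, with a median of -0.09. Ligands fell in 5 of 7, among them Fgf15 by 1.5, while Fgf4 rose. Nuclear factors and targets rose in 3 of 5 and fell in 1: the ERK-responsive factor gene Etv5 had 112, 121 and 116 CPM in alphaKO and 52.2, 52.4 and 50.9 CPM in WT (1.17 ± 0.05), and Etv4 rose by 0.84 ± 0.08. Feedback inhibitors on the list rose in 1 of 8 and fell in 3, with a median of -0.06. Among them, Spry4 had 43.2, 41.8 and 42.3 CPM in alphaKO and 14.6, 16.3 and 15.6 CPM in WT (1.46 ± 0.09). Dusp6, another feedback gene, had overlapping libraries and a change of 0.04 ± 0.05, and Dusp5 fell by 0.75. The list leaves out Dusp9, an ERK phosphatase gene that rose by 1.86 ± 0.06.

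Hedgehog ligands bind Patched, which frees Smoothened to act on the GLI factors. Of 13 tested members 9 rose and 1 fell, with a median of 0.45. Both ligands tested rose, and so did 5 of 6 receptors and co-receptors. Hhip, a surface decoy for the ligand, had 89.9, 90.8 and 94.8 CPM in alphaKO and 42.4, 44.8 and 41.9 CPM in WT (1.09 ± 0.07). Ptch1, receptor and target in 1, had 306, 298 and 294 CPM in alphaKO and 199, 168 and 195 CPM in WT (0.68 ± 0.06). Gli2, the main activator, had 146, 145 and 144 CPM in alphaKO and 47.8, 46.4 and 53.6 CPM in WT (1.56 ± 0.06) and lies on chromosome 1. Gli3, mainly a repressor, was the member that fell, with 184, 178 and 179 CPM in alphaKO and 293, 279 and 270.4 CPM in WT (-0.64 ± 0.05). None of these 4 overlapped between genotypes.

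LIF holds ESC in the naive state through its receptor and STAT3. Of 16 tested members 5 rose and 8 fell. The receptor gene Lifr had 53.6, 54.4 and 61.8 CPM in alphaKO and 31.2, 31.6 and 28.5 CPM in WT (0.90 ± 0.08). The ligand gene Lif had 11.1, 10.5 and 11.2 CPM in alphaKO and 23, 22.8 and 21.7 CPM in WT (-1.05 ± 0.11). The receptor was thus higher and the ligand lower in all 3 alphaKO libraries, and Socs3, the feedback target of STAT3, fell by 0.55.

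**Figure D3:**
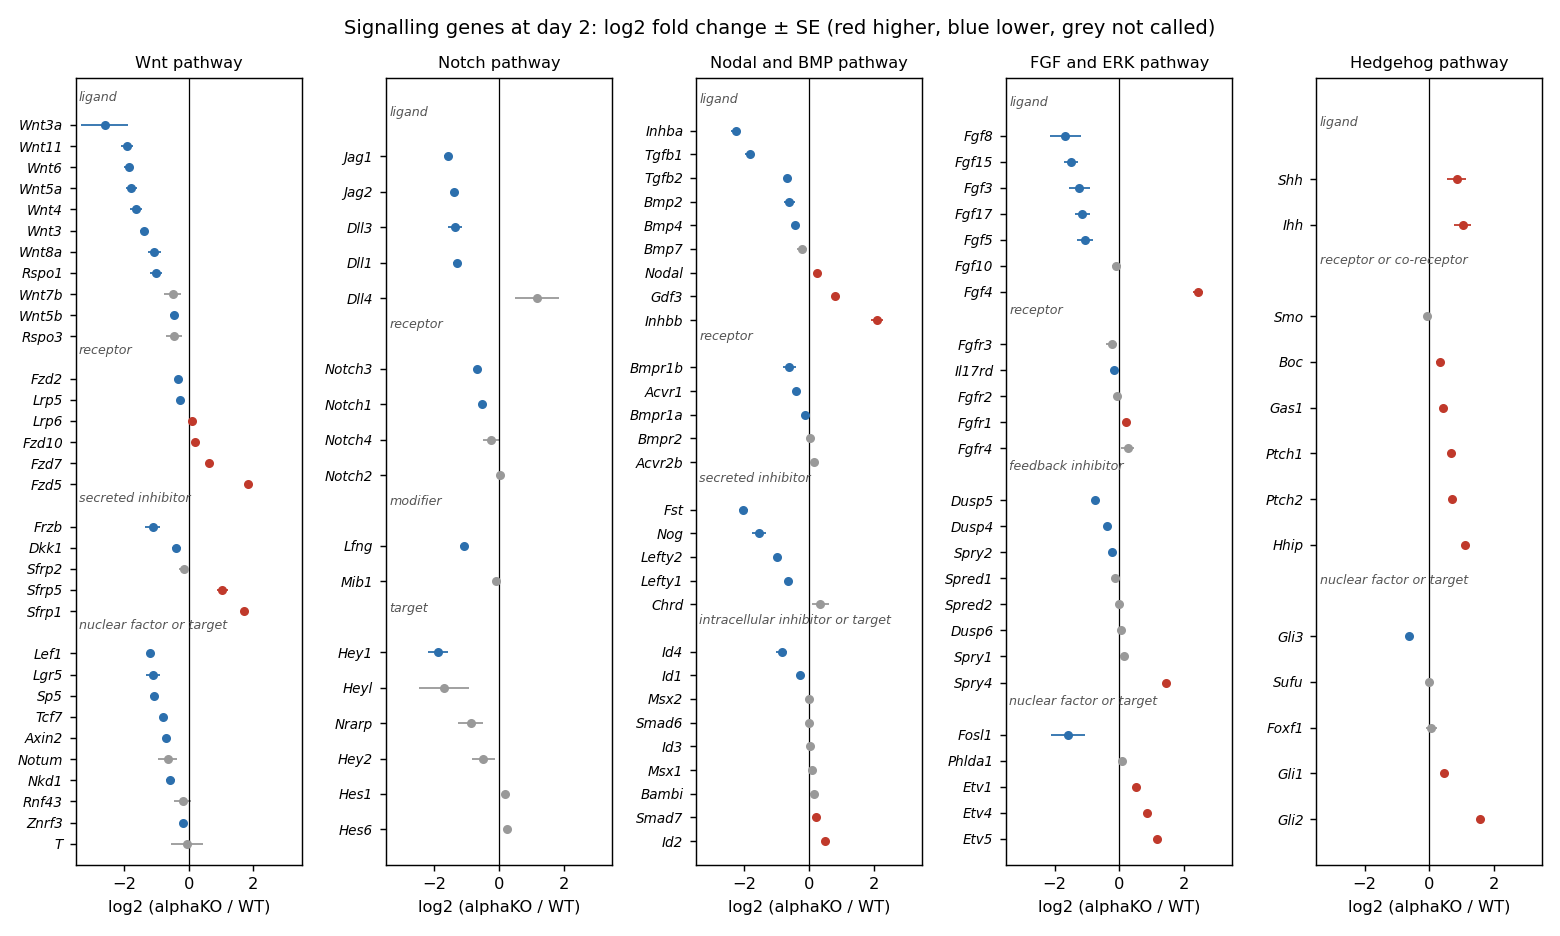
Log2 fold change of each tested member of 5 signalling pathways in alphaKO over WT at day 2, with bars of 1 SE, grouped by role; red points were called higher, blue points lower and grey points were not called. Wnt and Notch ligands lie left of 0 where called, Hedgehog receptors lie right of 0 where called, and single ligands such as Fgf4 and Inhbb lie right of 0 where most called ligands of their pathway lie left.

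Retinoic acid is made from retinol by RDH and ALDH1A enzymes, carried by CRABP proteins and broken down by CYP26 enzymes. Of 16 tested genes of its metabolism and transport 4 rose and 7 fell, with a median of -0.14. The synthesis genes fell in 5 of 6, with a median of -0.74, Rdh10 among them by 0.74. Stra6, the retinol uptake receptor, had 142, 136 and 139.8 CPM in alphaKO and 86, 78.7 and 92.9 CPM in WT (0.70 ± 0.06). Crabp2, which delivers retinoic acid to its receptors, had 304, 335 and 301 CPM in alphaKO and 250.4, 258 and 270.5 CPM in WT (0.27 ± 0.05), whereas Crabp1 fell by 1.22. The breakdown enzyme Cyp26a1 had 243, 257 and 258 CPM in alphaKO and 217, 220.3 and 253 CPM in WT; the groups overlapped and the change of 0.13 ± 0.06 did not pass. Rarb, a receptor on chromosome 14 that is itself switched on by retinoic acid, had 18.6, 20.3 and 20.1 CPM in alphaKO and 12.8, 15.1 and 14.6 CPM in WT (0.48 ± 0.10). The orphan receptors of the COUP-TF family parted: Nr2f1 had 2.68, 3.67 and 3.94 CPM in alphaKO and 10.1, 8.6 and 12.1 CPM in WT (-1.58 ± 0.16), while Nr2f2 had 52, 53.4 and 55.9 CPM in alphaKO and 39, 33.2 and 40.7 CPM in WT (0.51 ± 0.09). Nr2f6, of the same family, fell by 0.82 ± 0.10. Of all 13 tested retinoid receptor and COUP-TF genes 3 rose and 5 fell.

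Hox genes set position along the body axis and open in order under retinoic acid. In the Hoxa cluster 8 of 11 tested genes rose and none fell, with a median of 0.44, and in Hoxb 6 of 10 rose and none fell, with a median of 0.26. In Hoxc 1 of 9 rose and 1 fell, and in Hoxd 3 of 8 fell and none rose, with a median of -0.82. Hoxa10 had 12.2, 11.7 and 12.8 CPM in alphaKO and 4.95, 4.81 and 4.06 CPM in WT (1.41 ± 0.16). Hoxb8 had 126, 124 and 122 CPM in alphaKO and 64.3, 64.5 and 71.5 CPM in WT (0.89 ± 0.07). Hoxd1 had 2.91, 3.29 and 2.48 CPM in alphaKO and 7.06, 6.63 and 8.99 CPM in WT (-1.39 ± 0.21). The groups were apart for each of these, higher in alphaKO for the Hoxa and Hoxb genes and lower for the Hoxd gene. The differences between clusters were not tested.

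Lineage genes were read by list, beside shares of 19.9% higher and 20.3% lower over all tested genes. Of 24 tested primitive and visceral endoderm genes 15 rose and 4 fell, with a median of 0.57. Cubn, the endocytic receptor cubilin of visceral endoderm, had 206, 221 and 234 CPM in alphaKO and 70.3, 58.8 and 59.1 CPM in WT (1.81 ± 0.10). Sox7, on chromosome 14, had 27.8, 25.8 and 29.1 CPM in alphaKO and 8.92, 7.18 and 6.68 CPM in WT. Both were higher in every alphaKO library, but Apoe fell by 0.81, with 112, 122 and 124 CPM in alphaKO and 213, 205 and 207 CPM in WT. Of 24 tested neural progenitor genes 4 rose (16.7%) and 8 fell (33.3%). The ventral neural tube factor Nkx6-1 had 1.2, 0.701 and 1.19 CPM in alphaKO and 6.07, 4.54 and 6.06 CPM in WT (-2.43 ± 0.26), while Sox1, the early neural plate factor, had 84.7, 97.3 and 82.8 CPM in alphaKO and 58.5, 64.3 and 64.6 CPM in WT (0.50 as log2). Of 18 neuron genes 5 rose and 5 fell: Gap43, a growth cone protein gene, had 96.1, 96.8 and 89 CPM in alphaKO and 38.1, 36 and 32.8 CPM in WT (1.40 ± 0.08), and the migrating-neuron gene Dcx fell by 1.38 ± 0.15. Neural crest genes rose in 3 and fell in 6 of 14, Ets1 falling by 1.24, and mesoderm genes rose in 3 and fell in 6 of 18, Hand2 falling by 1.25 and Pdgfra rising by 1.01. Without WT replicate 1, 2 endoderm genes fell and 2 neuron genes rose; without WT replicate 2 or without alphaKO replicate 2, 3 neuron genes fell. Among the fewer neural progenitor genes outside chromosomes 1, 14 and Y, 2 rose. Trophoblast genes rose in 1 and fell in 5 of 10, with 3 falling without WT replicate 1, and Krt7, a simple-epithelium keratin on that list, had 11.6, 7.54 and 8.41 CPM in alphaKO and 36.7, 32.4 and 36.6 CPM in WT.

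Epithelial genes were lower almost throughout. Of 32 tested members 28 fell and 1 rose, with a median of -0.98. Esrp1, a splicing regulator of epithelial cells, had 4.22, 4.31 and 3.18 CPM in alphaKO and 34.4, 31.9 and 35.2 CPM in WT (-3.12 ± 0.11). Among tight junction genes 10 of 11 fell, Cldn6 with 36.1, 32.6 and 34.7 CPM in alphaKO and 135, 123 and 129 CPM in WT (-1.91 ± 0.08). Cdh1, E-cadherin, had 453, 432 and 442 CPM in alphaKO and 1098, 1105 and 1075 CPM in WT (-1.30 ± 0.05). For these 3 genes the groups were far apart beside their spread. All 4 keratins fell, and so did 5 of 6 regulators and all 3 surface proteases or their inhibitors. The member that rose was the desmosome gene Dsc2, with 84, 84.6 and 81.9 CPM in alphaKO and 64.7, 67.7 and 65 CPM in WT. Mesenchymal genes did not move in the opposite direction, with 3 higher and 11 lower of 17: Cdh11, a mesenchymal cadherin, fell by 1.56 and Mmp2 by 1.10, against a rise of Tgfbi, an extracellular matrix gene, with 55.5, 61.1 and 53.3 CPM in alphaKO and 10.9, 12 and 9.74 CPM in WT (2.38 ± 0.11).

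**Figure D4:**
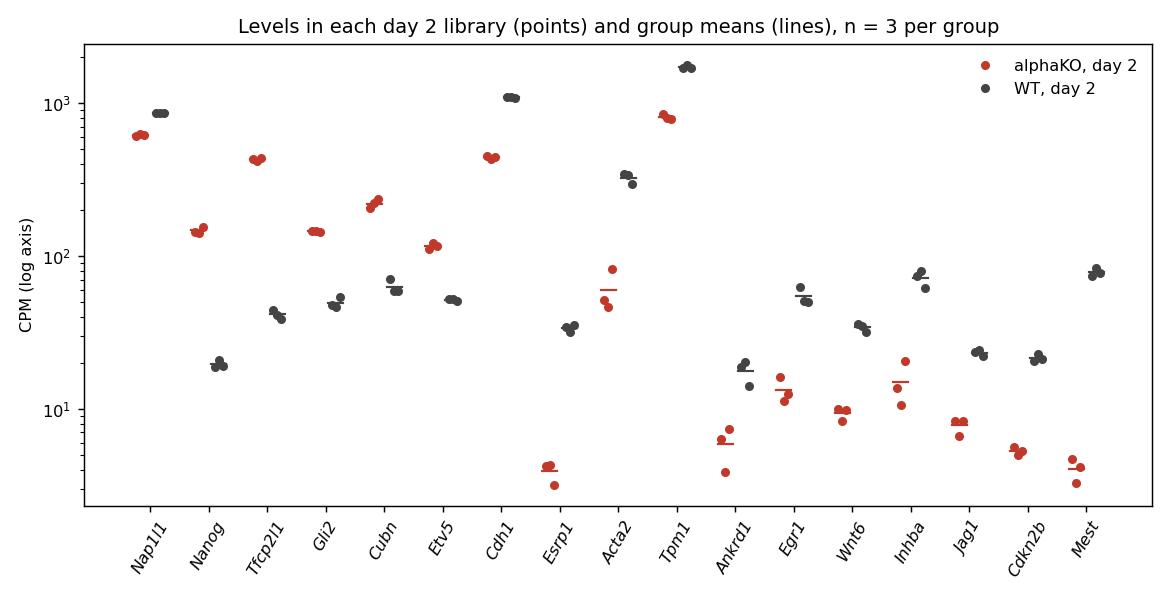
Level of 17 named genes in CPM, on a log axis, in each day 2 library (points, alphaKO left and WT right of each gene) with group means as lines, n = 3 per group. Nanog, Tfcp2l1, Gli2, Cubn and Etv5 are higher in all 3 alphaKO libraries, the other genes shown are lower in all 3, and Acta2, Ankrd1 and Inhba spread most within alphaKO on this axis.

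Fibroblast and contractile genes were lower, as were the fibroblast markers given above. The fibroblast list and those markers are not separate sets, since Col1a1 is in both. Of 20 tested fibroblast genes 17 fell and none rose, with a median of -1.36 and a summed level of 401 to 489 CPM in alphaKO and 1056 to 1144 CPM in WT. Col1a1, the main fibrillar collagen chain, had 75.7, 72.1 and 107 CPM in alphaKO and 291, 297 and 276 CPM in WT (-1.76 ± 0.12). Of 20 contractile genes and targets of serum response factor (SRF) 19 fell and none rose, with a median of -0.88 and a summed level of 7952 to 8677 CPM in alphaKO and 12120 to 12570 CPM in WT. Acta2, smooth muscle actin, had 51.3, 46.3 and 82.6 CPM in alphaKO and 346, 337 and 295 CPM in WT (-2.44 ± 0.15). Tpm1, tropomyosin, had 855, 794 and 783 CPM in alphaKO and 1702, 1777 and 1687 CPM in WT (-1.09 ± 0.06). Both were lower in every alphaKO library, and replicate 3, which had the highest Acta2 and Col1a1 levels of the alphaKO libraries, still lay far below WT. The transcription factor gene Srf had 44.5, 42.6 and 39.97 CPM in alphaKO and 66.3, 61.9 and 64.6 CPM in WT (-0.60 ± 0.07), and the list member not called was Actb, with a change of -0.09 ± 0.04 and overlapping libraries. The list of YAP, its partners and the targets it shares with TEAD factors, which read cell spreading and contact, fell in 14 of 16 and rose in 2, with a median of -0.46. Ankrd1, a standard reporter of YAP activity, had 6.33, 3.88 and 7.39 CPM in alphaKO and 18.8, 20.3 and 14.2 CPM in WT (-1.60 ± 0.17), and Ctgf, a secreted matrix-associated protein gene, had 138, 129 and 144 CPM in alphaKO and 244, 262 and 205 CPM in WT. Yap1 itself rose, with 263, 266 and 271 CPM in alphaKO and 229, 232 and 229 CPM in WT (0.21 ± 0.04). The part of the lower fibroblast marker level in these lists was not tested.

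SRF and TEAD are known to bind short elements in the promoters of such genes. Windows from 250 bases before to 50 after the RefSeq start (GRCm38.p6) were searched on both strands for the CArG box, the 10-base SRF element, and for the TEAD hexamer GGAATG or its reverse CATTCC. A CArG box lay in 5 of the 17 contractile genes with a window (29.4%), in 2 of 14 immediate-early genes (14.3%) and in none of 12 YAP and TEAD targets. Of all 27025 genes with a window, 1.81% had one. The hexamer lay in 10 of the 12 YAP and TEAD targets (83.3%), in 7 contractile genes (41.2%) and in 2 immediate-early genes (14.3%), against 16.6% of all genes with a window. A match is a description of letters, not of binding, and the lists were made of genes known as targets. Below are 120 bases of 5 such promoters, each 5′ to 3′ on its gene's strand, with the matches in capitals: CArG boxes in Srf, Myl9, Cnn2 and Zfp36, and hexamers in Ankrd1. They lie at chr17:46556170-46556289 (minus strand) for Srf, chr2:156775248-156775367 (plus) for Myl9, chr10:79988480-79988599 (plus) for Cnn2, chr7:28379229-28379348 (minus) for Zfp36 and chr19:36119947-36120066 (minus) for Ankrd1, ahead of the start in each case.
Srf: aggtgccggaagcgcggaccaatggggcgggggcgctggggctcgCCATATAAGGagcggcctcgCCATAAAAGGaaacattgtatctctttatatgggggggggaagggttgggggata
Myl9: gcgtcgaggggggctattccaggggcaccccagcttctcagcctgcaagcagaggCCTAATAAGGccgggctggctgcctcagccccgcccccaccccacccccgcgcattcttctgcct
Cnn2: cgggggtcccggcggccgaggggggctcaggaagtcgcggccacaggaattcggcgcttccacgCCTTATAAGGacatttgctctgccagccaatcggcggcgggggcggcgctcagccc
Zfp36: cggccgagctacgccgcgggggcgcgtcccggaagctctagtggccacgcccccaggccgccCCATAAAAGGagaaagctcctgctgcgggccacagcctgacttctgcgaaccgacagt
Ankrd1: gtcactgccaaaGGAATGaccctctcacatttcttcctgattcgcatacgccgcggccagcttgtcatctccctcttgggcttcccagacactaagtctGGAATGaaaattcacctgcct

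Srf holds 2 CArG boxes 10 bases apart ahead of its own start, and Srf was itself among the genes that fell. Myl9, the regulatory light chain of smooth muscle myosin, had 30.4, 25.4 and 28.9 CPM in alphaKO and 90.6, 87.6 and 83.4 CPM in WT (-1.63 ± 0.10). Cnn2, the actin-binding calponin 2, had 155, 141 and 138 CPM in alphaKO and 360.0, 356 and 368 CPM in WT (-1.32 ± 0.06). Zfp36, an immediate-early gene whose protein destroys AU-rich mRNAs, had 9.87, 9.11 and 8.63 CPM in alphaKO and 25.1, 22.9 and 25.1 CPM in WT (-1.41 ± 0.10). All 3 were lower in every alphaKO library.

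Immediate-early genes, which respond within minutes to growth factors and stress, fell in 16 of 19 and rose in none, with a median of -0.81. Egr1 had 16.2, 11.2 and 12.6 CPM in alphaKO and 63, 51 and 50.2 CPM in WT (-2.04 ± 0.13), and Junb had 15.2, 12 and 14.9 CPM in alphaKO and 46, 43.5 and 41.9 CPM in WT (-1.64 ± 0.10). Every alphaKO library was under every WT library in both. Myc and Jund were not called, with changes of 0.03 ± 0.08 and 0.12 ± 0.06.

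The p53 gene and its targets fell in 23 of 30 and rose in 4, with a median of -0.54. Trp53 itself rose, with 279.5, 272 and 285 CPM in alphaKO and 252, 227 and 239 CPM in WT (0.22 ± 0.04). Of its apoptosis targets, Pmaip1 (NOXA) had 39.5, 42.6 and 39.97 CPM in alphaKO and 118, 128 and 127 CPM in WT, and Bbc3 (PUMA) fell by 1.18 ± 0.08. Cdkn1a, the p21 inhibitor of cyclin-dependent kinases, had 97.1, 81.2 and 86.2 CPM in alphaKO and 196, 189.7 and 189 CPM in WT (-1.12 ± 0.08). Targets lower in alphaKO thus stood beside a higher Trp53 level. Sesn1, a stress-response target, rose by 1.19 ± 0.07, and Mdm4, a p53 inhibitor on chromosome 1, by 0.67 ± 0.05.

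Cell cycle genes were read by role. Of 7 cyclin-dependent kinase inhibitors 5 fell and 2 rose: Cdkn2b (p15) had 5.65, 4.96 and 5.29 CPM in alphaKO and 20.62, 22.8 and 21.3 CPM in WT (-2.02 ± 0.14). The G1 cyclins went in different directions, Ccnd1 falling by 0.80 ± 0.07 and Ccnd3 rising by 0.54 ± 0.05. DNA replication genes rose in 26 of 34 and fell in none, by a median of only 0.25, and mitosis genes rose in 21 of 24 and fell in none, by a median of 0.26. Mcm5, a subunit of the replicative helicase, had 583, 595 and 601 CPM in alphaKO and 437, 449 and 440.0 CPM in WT (0.42 ± 0.04), and Ccnb1, the mitotic cyclin B1, had 158, 158 and 161 CPM in alphaKO and 118, 119 and 119 CPM in WT (0.42 ± 0.04). These differences are small beside those of the inhibitors, yet the groups did not overlap for either gene. Mcm3 and Mcm6, which rose by 0.83 and 0.67, lie on chromosome 1.

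Among chromatin genes, Polycomb genes rose in 13 and fell in 7 of 29, with a median of 0.12, and 4 fell without WT replicate 2. Jarid2, which guides the PRC2 complex, had 445, 447 and 446 CPM in alphaKO and 242, 250.2 and 232 CPM in WT (0.89 ± 0.04). Mtf2, another PRC2 partner, rose by 0.46, and the PRC2 core genes Suz12 and Ezh2 by 0.34 and 0.24. Rnf2, the ubiquitin ligase of PRC1, had 394, 388 and 388 CPM in alphaKO and 172, 179.8 and 175 CPM in WT (1.15 ± 0.05) and lies on chromosome 1. Of 14 DNA methylation genes 7 rose and 2 fell: Tet2, which oxidises methylcytosine, had 108, 102 and 109 CPM in alphaKO and 49.9, 47.2 and 44.8 CPM in WT (1.17 ± 0.06), and the methyltransferase gene Dnmt3a had 233, 242 and 239.8 CPM in alphaKO and 114, 124 and 117 CPM in WT (1.01 ± 0.05). The groups were apart in both, while Dnmt3b overlapped, with a change of -0.07 ± 0.05. Histone variant genes rose in 7 and fell in 1 of 11, and subunits of BAF, a chromatin remodeller, rose in 8 and fell in 1 of 24.

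Imprinted genes fell in 20 of 38 and rose in 3, with a median of -0.45. Mest had 4.68, 3.29 and 4.15 CPM in alphaKO and 73.4, 83.6 and 76.9 CPM in WT (-4.27 ± 0.12). Dlk1, a Notch-related growth regulator, went the other way, with 82.5, 87.1 and 83.3 CPM in alphaKO and 37.8, 34.1 and 36.2 CPM in WT (1.23 ± 0.08). H19 fell by 1.23 and Phlda2 by 1.2. Germline genes rose in 7 of 18 and fell in none, Dazl, an RNA-binding protein of germ cells, by 0.71. Genes of the 2-cell embryo state rose in 3 and fell in 1 of 21 (14.3% and 4.76%), under the shares of 19.9% and 20.3% over all tested genes.

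One-carbon and threonine metabolism genes rose in 14 of 19 and fell in 1, with a median of 0.40. Tdh, threonine dehydrogenase, an enzyme that mouse ESC rely on for glycine and S-adenosylmethionine, had 20.9, 19.08 and 19.9 CPM in alphaKO and 7, 4.54 and 5 CPM in WT (1.85 ± 0.10) and lies on chromosome 14. Amt, of the glycine cleavage system, rose by 0.68. Glycolysis genes rose in 7 and fell in 7 of 21, and targets of ATF4, the amino acid response factor, rose in 10 and fell in 6 of 21 (3 without WT replicate 1), Cth with 48.3, 47.8 and 50.1 CPM in alphaKO and 17.7, 21.4 and 20.9 CPM in WT. Cholesterol synthesis genes rose in 11 and fell in 2 of 26, with a median of 0.11. Lysosome genes fell in 17 and rose in 5 of 28, Cd63, a membrane protein of late endosomes, with 52.1, 55.9 and 55.7 CPM in alphaKO and 108, 108 and 112 CPM in WT (-1 as log2). Antigen presentation and interferon genes fell in 13 and rose in 2 of 20, with a median of -0.62: the membrane protein gene Ifitm3 had 15.5, 15.2 and 16.2 CPM in alphaKO and 49.2, 49.5 and 49.1 CPM in WT (-1.66 ± 0.09). No library of one group reached the other for Cth, Cd63 or Ifitm3.

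The largest rises outside these lists were led by Mymx, which encodes the muscle cell fusion peptide myomixer, with 5.13, 6.09 and 6.15 CPM in alphaKO and 0.31, 0.406 and 0.375 CPM in WT (3.97 ± 0.26). Calcoco2, an autophagy receptor gene, had 137, 136 and 139 CPM in alphaKO and 20.4, 20.4 and 17.2 CPM in WT (2.82 ± 0.09), and Aqp3, a water and glycerol channel gene, rose by 2.81. Among abundant genes, Dusp9, an X-linked ERK phosphatase, had 543, 532 and 545 CPM in alphaKO and 158, 149.8 and 137 CPM in WT (1.86 ± 0.06), and Tpr, a nuclear pore protein gene on chromosome 1, had 1547, 1576 and 1564 CPM in alphaKO and 660.1, 653 and 634 CPM in WT. After the Y-linked genes and Mest, large falls included Galnt14, a glycosyltransferase gene, by 2.89, and the chemokine gene Ppbp by 2.79. Thbs1, the matrix protein thrombospondin 1, had 318, 259 and 354 CPM in alphaKO and 868, 868 and 787 CPM in WT (-1.44 ± 0.12).

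The knockout genotypes were also set against each other at day 2. Of the 18412 genes 2396 (13%) were higher in alphaKO than in fullKO and 2259 (12.3%) lower by edgeR's quasi-likelihood test. All 18 general pluripotency genes were lower in alphaKO, with a median log2 difference of -0.51, and 19 of 22 naive genes were lower and 3 higher. Nanog averaged 147 ± 7.26 CPM in alphaKO and 342 ± 23.3 CPM in fullKO (n = 3 each), against 19.5 ± 1.23 CPM in WT. Genes of the 2-cell state were lower in 19 of 21, with a median of -2.34, among them Zscan4d, which averaged 55.2 CPM in fullKO. Anterior Hox genes were higher in alphaKO in 11 of 15 and lower in none, with a median of 0.72, and retinoic acid metabolism genes were higher in 9 and lower in 2 of 16. Crabp2 averaged 314 ± 19 CPM in alphaKO and 58.3 ± 3.28 CPM in fullKO (2.42 ± 0.05), against 260 ± 10.2 CPM in WT. Hoxb6 averaged 58.4 CPM in alphaKO and 27.7 CPM in fullKO, with WT at 30.8 CPM. Hedgehog genes parted: Ptch1 was lower in alphaKO than in fullKO by a log2 difference of -1.59 ± 0.05, with fullKO at 900 ± 37.3 CPM, while Gas1, a co-receptor, was higher in alphaKO by 2.24 ± 0.08. Fibroblast genes were higher in alphaKO than in fullKO in 13 of 20 and contractile genes in 13 of 20, with none lower in either, and the fibroblast markers summed to 232.3 to 297.1 CPM in alphaKO, 100.5 to 110.0 CPM in fullKO and 633.2 to 704.9 CPM in WT. Epithelial genes were higher in 5 and lower in 5 of 32.

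Whether the alphaKO difference changed from that before retinoic acid was tested as the difference at day 2 less that at day 0. A call here does not mean that a difference was absent at day 0. The alphaKO difference was higher at day 2 for 3215 genes (17.5%) and lower for 2716 (14.8%). Formative genes had a higher difference in 15 of 16 and a lower one in none, with a median of 2.26; their median log2 fold change over WT was 0.09 at day 2 and -1.38 at day 0. Pou3f1 averaged 23.3 ± 2.87 CPM in alphaKO and 12.8 ± 1.40 CPM in WT at day 2, against 12.5 ± 1.15 CPM in alphaKO and 70.4 ± 3.82 CPM in WT at day 0, so alphaKO was lower before retinoic acid and higher after it (3.37 as the log2 difference of differences). Dppa3 averaged 3.51 ± 0.514 CPM in alphaKO and 3.32 ± 0.591 CPM in WT at day 2, against 5.66 ± 0.575 CPM in alphaKO and 52.95 ± 3.8 CPM in WT at day 0. Naive genes had a higher difference at day 2 in 17 of 22 and a lower one in 4, with a median of 0.85. For Klf4, by contrast, the alphaKO excess was smaller at day 2 than at day 0, by -1.44 ± 0.09. Epithelial genes had a lower difference at day 2 in 21 of 32 and a higher one in 1, with a median of -0.81, and contractile genes a lower one in 16 of 20 and a higher one in 1. Cdh1 averaged 680 ± 17.4, 442 ± 10.5 and 267 ± 29.7 CPM at days 0, 2 and 4 in alphaKO, while in WT it averaged 913 ± 27.3, 1093 ± 15.9 and 1108 ± 31.6 CPM. Acta2 averaged 10.7 ± 1.28, 60.1 ± 19.7 and 501 ± 162 CPM on the same days in alphaKO and 21.1 ± 4.30, 326 ± 27.5 and 2678 ± 167 CPM in WT. Fibroblast markers differed at day 0 too, with sums of 1167 to 1820 CPM in alphaKO and 2199 to 2910 CPM in WT. Between day 4 and day 2 the alphaKO difference was higher at day 4 for 2828 genes (15.4%) and lower for 2406 (13.1%).

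**Figure D5:**
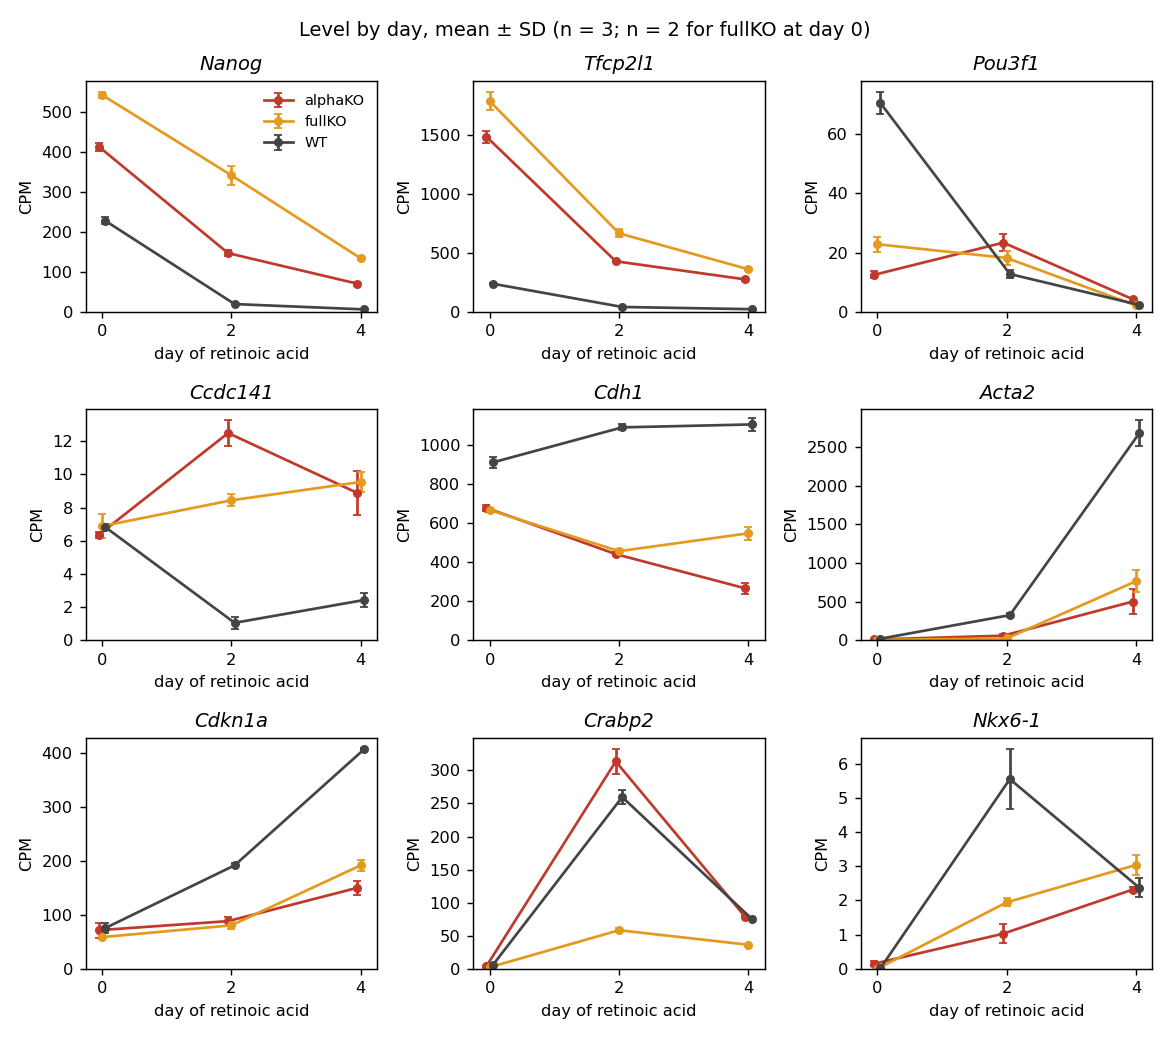
Mean CPM ± SD of 9 genes by day of retinoic acid in alphaKO, fullKO and WT (n = 3, with n = 2 for fullKO at day 0). Mean Nanog and Tfcp2l1 levels are lower on each later day in every genotype and higher in both knockouts than in WT on each day, mean Cdh1 levels decrease with day in alphaKO and not in WT, and Acta2 and Cdkn1a have their highest means in WT at day 4.

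The title of the series speaks of transcriptional variability, so the spread between replicates was compared. Over the 9442 genes whose mean reached 10 CPM, the median SD of log2 CPM over the 3 libraries was 0.0553 in alphaKO and 0.0686 in WT, and alphaKO had the larger SD in 40.5% of genes. With all libraries thinned to 14388200 counts the medians were 0.0592 in alphaKO and 0.0693 in WT. Bulk replicates measure the spread between cultures or preparations, not between cells, and no test was made over genes.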

How the data were processed

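Stranded mRNA-seq was made from bulk RNA, per the labels. The deposited values are raw counts of reads per gene. According to the submitters' processing notes FastQC checked the reads and STAR 2.7.1a aligned them to mm10. How reads were counted (tool, strand, annotation release) is not given in the sources used here: reads of overlapping, antisense or multi-copy genes may have been split or lost. Of 55471 gene IDs, 55230 matched GENCODE M21 (GRCm38).

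Groups came from the genotype labels and titles. Counts were fitted with edgeR 4.0.16 in R 4.3.3 (filterByExpr, which kept 18412 genes, TMM scaling, 1 mean for each of 9 groups over all 26 libraries, 17 residual degrees of freedom, biological coefficient of variation 0.0495), and p-values were Benjamini-Hochberg adjusted over all genes tested. CPM were computed on TMM-scaled library sizes. SE is the log2 fold change over the square root of F. The fit was tested on simulated data. Replicates of a group differed by more than counting noise and all were kept.

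The 50 gene lists, the markers and the comparison were chosen with earlier results of these data known, so no list is independent support; lists are described by counts and medians beside those of all tested genes, and no set test was made. Named genes are NAP1 family members, up to 4 called members of a list with the largest change at a mean of at least 5 CPM, members needed to show a role, and the largest changes without overlap between libraries; genes with set-out promoters were taken for their motif. Some genes that this rule takes are left out here. Nap1l4, Klf4, Dppa3, Trp53inp1, Dnmt3b, Cyp26a1, Dusp6, Hes1, Actb, Myc, Jund and Pdgfrb were named for being small, absent or opposite changes, after their values were seen. As alternatives stood RLE scaling, DESeq2 1.42.0, other filters on low counts, only the groups compared, a replicate block, each library left out, genes outside chromosomes 1, 14 and Y, other fold limits and thinned counts. Figures were drawn with matplotlib 3.10.9 in Python 3.11.15.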

Additional observations from a re-analysis of the deposited data

Results flagged for a closer look

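The difference between alphaKO and WT was not the same on all days, by the test of the difference itself in edgeR. Set against day 0, it was higher at day 2 for 3215 genes and lower for 2716, and set against day 2, it was higher at day 4 for 2828 genes and lower for 2406. These comparisons share the day 2 libraries.

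The genes with the largest such differences between day 2 and day 0 (log2 difference of differences, at a mean of 5 CPM or more) included several that were near 0 on one of the days. Toward higher at day 2 stood Enpp2, a lysophospholipase gene, at 4.72, Ccdc141 at 3.67, the secreted glycoprotein gene Stc1 at 3.5, Pou3f1 at 3.37, Dppa3 at 3.31, S100g at 3.29, Mup6 at 3.29 and the transcription factor gene Sp8 at 3.15. Ccdc141 averaged 12.5 ± 0.789 CPM in alphaKO and 1.05 ± 0.367 CPM in WT at day 2, against 6.36 ± 0.167 CPM in alphaKO and 6.82 ± 0.177 CPM in WT at day 0. Enpp2 owed its value to day 0, with 0.903 ± 0.305 CPM in alphaKO and 13.1 ± 0.577 CPM in WT, while at day 2 it averaged 0.403 ± 0.135 CPM in alphaKO and 0.217 ± 0.110 CPM in WT. Like Enpp2, the genes Stc1, Dppa3 and Sp8 were not called against WT at day 2. Their log2 fold changes over WT were 1.57, 0.09 and -0.20 at day 2 and -1.93, -3.22 and -3.34 at day 0.

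Toward lower at day 2 stood Nkx6-1 at -4.92, Fam181b at -4.12, Ppbp at -3.91, the trafficking gene Rab6b at -3.82, the calcium-binding protein gene Calb2 at -3.61, Crtac1 at -3.53, Wnt6 at -3.52 and the nicotinic receptor subunit gene Chrna4 at -3.33. Calb2 and Crtac1 were not called against WT at day 2, with log2 fold changes of -0.75 and -0.28. At day 0 they were higher in alphaKO, by 2.86 and 3.25. Nkx6-1 had 1 count and Fam181b 3 counts over the WT day 0 libraries, and S100g 1 count over the alphaKO day 0 libraries, so the fitted values of these 3 genes depend on the prior count and are not bounds.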

How the results depend on the processing

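No named gene called at day 2 turned direction under any alternative that was run, and the counts over all genes stayed within 1.5 times their values. For alphaKO against WT at day 2, DESeq2 called 3511 genes higher and 3770 lower, RLE scaling 3551 and 3808, no low-count filter 3378 and 3452, and only the groups compared 3681 and 3855. With only the groups compared, 433 called genes were at least 2-fold higher and 1015 at least 2-fold lower. Outside chromosomes 1, 14 and Y, 3121 genes were higher and 3347 lower. The replicate numbers did not pair the libraries: same-numbered libraries had correlations of their deviations of 0.0783, 0.00889 and -0.00604. With a replicate block 3619 genes were higher and 3698 lower; among named genes Esx1, not discussed above, lost its call. The balance between days 4 and 2 turned with only the groups compared, with 2578 genes higher at day 4 and 2978 lower.

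Leaving out 1 library gave 3164 to 3348 genes higher and 3272 to 3400 lower (2-fold: 498 to 526 higher and 1005 to 1077 lower). Against fullKO it gave 2046 to 2177 higher and 1859 to 1940 lower, between days 2 and 0 2931 to 3063 and 2360 to 2765, and between days 4 and 2 2517 to 2735 and 2143 to 2380. Of the list counts recomputed under all alternatives, 1344 stayed within 1.5 times their value and 56 did not, most of them counts of 2 or fewer. Of the list medians 594 moved by less than the spread between replicates and 106 by more, 20 of these without WT replicate 3 and 18 outside chromosomes 1, 14 and Y. The largest moves were 0.20 without a single library, 0.24 with only the groups compared and a replicate block, and 0.36 outside those chromosomes. The move of 0.36 was that of the naive pluripotency median, from 1.40 to 1.04. Outside the same chromosomes the Nodal and BMP median turned to 0.01 and the formative median, 0.09 over all members, to -0.23. Among named genes 14 calls were lost over all alternatives, 12 of them without a single library, for genes whose day 2 change against WT is not given above. Where no list member was called in a direction by edgeR, unadjusted p-values under 0.05 in that direction were counted. They were found for 2 Notch, 1 immediate-early, 1 DNA replication and 2 germline genes and for no fibroblast, contractile or mitosis gene. DESeq2 called 1 DNA replication gene lower and none of the others. RLE scaling called 1 germline gene lower, as did leaving out alphaKO replicate 3. With only the groups compared, 1 germline and 1 DNA replication gene were called lower and 1 Notch gene higher. With a replicate block added to that, 1 immediate-early gene was called higher too. Dppa3, not called, turned to -0.05 without WT replicate 3 and -0.04 without alphaKO replicate 2. Nap1l4 passed the threshold without WT replicate 3, with only the groups compared and outside the 3 chromosomes. With a 2-fold limit on the WT course, 34.3% of the genes that fell in WT and 9.15% of those that rose were higher in alphaKO. The share of genes with the larger SD in alphaKO was 37.4% at a mean of 50 CPM or more and 42.9% in thinned counts. Low genes limit the rest: values under about 1 CPM rest on few counts.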
